A study of Homo sapiens with 18 samples.

Results

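The genes described here are MYC and 35 genes whose products build ribosomes in the nucleolus, 36 of the 61487 genes counted in NCI-H1975 cells, an established human lung adenocarcinoma line. They were taken by name from general knowledge of the pathway, with earlier results of these data known. All 36 were found in the count tables. By role they are MYC itself, 6 genes of RNA polymerase I transcription, 8 of the small nucleolar ribonucleoprotein (snoRNP) complexes and the nucleolar scaffold, 11 of small subunit assembly and 10 of large subunit assembly. The cells form 3 conditions. sgDAMP cells are a CRISPR knockout of DAMP, the micropeptide that the labels assign to the long noncoding RNA gene DSP-AS1. sgControl cells are the CRISPR control, and Scramble cells are given by that word alone. Each condition was measured in 3 mRNA libraries (poly(A)-selected RNA) and 3 ribosome profiling libraries, which hold the short RNA stretches that ribosomes protect from nuclease (footprints). Cells for ribosome profiling were harvested after cycloheximide at 100 µg/ml, which holds ribosomes on the mRNA. The labels do not say whether the libraries of a group came from separate cultures, nor whether the knockout is a clone or a pool. The p-values below therefore measure only the spread between these libraries, which may be technical.

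A ribosome begins as one long precursor RNA made by RNA polymerase I from the ribosomal DNA repeats. In the nucleolus, snoRNPs modify the precursor, and assembly factors fold it, cut it and join ribosomal proteins to it to give a small and a large subunit. MYC, a transcription factor that binds DNA as a dimer with MAX, is known in many cell types to raise transcription of genes of this pathway, often through a promoter element with the letters CACGTG, the E-box.

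The promoters show how far these genes carry that element. In RefSeq promoter windows of GRCh38.p14, from 250 bases before to 50 bases after a gene's start, 30 of the 36 genes had a window, and 12 of them (40%) held CACGTG in a window of at least 1 of their annotated starts. MYC, NOLC1, NOP58, BOP1, RRP12 and RRS1 had no window, so whether they carry the motif is not known here. The motif is the same read on either strand. It was found in the windows of 27 of 84 further ribosome assembly genes (32.1%) and of 1727 of 15843 protein-coding genes (10.9%). Counted by window, the shares were 12 of 37 (32.4%) and 1851 of 22199 (8.34%). The 12 genes were DDX21, FBL, GAR1, UTP4, UTP20, NOP14, RRP9, BYSL, LTV1, NOP2, PES1 and GNL3. In 7 of them the window belongs to the outermost annotated start of the gene, and in 5 (DDX21, GAR1, BYSL, PES1 and GNL3) to a start further inside it. The 3 sites printed are those whose motif begins before the outermost start. In UTP4 and UTP20 the whole motif lies upstream of the gene, and in RRP9 it reaches into the start itself. Each line gives 30 bases, 5′ to 3′ on the gene's own strand, with the E-box in capitals.
UTP4, chr16:69132621-69132650, plus strand: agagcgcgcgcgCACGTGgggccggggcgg
UTP20, chr12:101280083-101280112, plus strand: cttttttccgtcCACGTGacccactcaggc
RRP9, chr3:51941892-51941921, minus strand: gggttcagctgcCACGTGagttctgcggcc
The motif begins 16 bases before the start in UTP4, 10 in UTP20 and 5 in RRP9. A match is a run of letters and was not tested as a binding site.

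Gene counts per library ran from 17171514 to 17455799 in sgDAMP mRNA, 17098397 to 17464782 in sgControl mRNA, 6207783 to 6864945 in sgDAMP footprints and 6845899 to 7840852 in sgControl footprints. Scramble footprints had 1035159 to 1302852, with 10859527 to 12424884 in Scramble mRNA. Only 6.37% to 20.2% of the Scramble footprint counts fell in protein-coding genes, compared with 76.3% to 76.6% in sgDAMP footprints and 78.9% to 79.3% in sgControl footprints. DSP-AS1, the gene of the knockout, had 2 footprints in the 3 sgDAMP libraries together, 567 in sgControl and 852 in Scramble, while its mRNA counts summed to 979 in sgDAMP, 936 in sgControl and 822 in Scramble. Over the 99% of genes that agreed best, the footprint libraries of sgDAMP differed from each other by no more than sampling noise (mean chi-square per degree of freedom 0.91), and so did those of sgControl (0.909). Over all genes with at least 30 summed counts the means were 1 in sgDAMP and 1.57 in sgControl. For the genes described here the means were 1.23 in sgDAMP and 1.21 in sgControl. The highest values, for FBL in sgDAMP (6.49) and UTP20 in sgControl (4.41), lay beyond sampling noise. Each of these groups was therefore summed and counted as 1 sample. By the same measure over 99% of genes, the mRNA libraries of a group differed far beyond sampling noise (64.7 in sgDAMP, 38.4 in sgControl), and the fit carries that spread. Of 6 epithelial markers 4 reached a mean of 1 CPM (counts per 1e6 gene counts) in mRNA of every condition. None of 3 lung adenocarcinoma markers (NKX2-1, NAPSA, SFTPB) did in any group, and their summed level in mRNA stayed between 0.344 and 0.815 CPM in sgDAMP, 0.401 and 1.44 CPM in sgControl and 0.553 and 0.687 CPM in Scramble. Of 5 leukocyte markers 1 reached 1 CPM in sgDAMP mRNA (summed level 3.09 to 5.03 CPM), in sgControl mRNA (2.86 to 7.31 CPM) and in Scramble footprints (6.91 to 15.5 CPM), while PTPRC and CD3E were at 0 in every group. Of 5 fibroblast markers 1 reached 1 CPM in each group, and in footprints DCN and PDGFRB were at 0 while the summed level was 5.64 to 6.99 CPM in sgDAMP and 1.02 to 2.05 CPM in sgControl. Of the 6 epithelial markers 1 was past 1.5-fold in footprints, the keratin KRT19, with 166 in sgDAMP and 59 in sgControl. The other epithelial markers did not follow it: the median log2 ratio of the 6 was 0.05 and the lowest -0.046, with 3 above 0. The part of these differences in the results below was not tested.

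In sgDAMP cells, the footprint ratios of the ribosome assembly genes and MYC that could be compared lay within 1.5-fold of sgControl, with NOLC1 as the exception. NOLC1, a phosphoprotein that shuttles snoRNPs between the nucleolus and Cajal bodies, had 2.74 times the footprints in sgDAMP cells. Of the 36 genes, 34 had at least 30 summed footprints and could be compared. One of the 34 (NOLC1) was past 1.5-fold higher with a 95% counting interval clear of 1, and 0 were past 1.5-fold lower. Over all 14289 genes compared, 14.1% were past that mark higher and 11.3% lower, and over 10805 protein-coding genes 14.1% higher and 8.88% lower. Among the 6958 protein-coding genes with as many footprints as the least covered of the 34 (248), the shares were 7.27% higher and 6.38% lower. The median log2 ratio was 0.00 over the 34 genes and 0.01 over all genes. The ratios of the other 33 ran from 0.707 (UTP15) to 1.29 (NOB1 and WDR12). Among the 6958 protein-coding genes, 86.3% of ratios lay within 1.5-fold. Whole intervals lay within 1.5-fold for 28 of the 34 genes (82.4%) and for 71.5% of the 6958. With 1 summed sample per group these ratios have no replicate check, and their exact Clopper-Pearson intervals cover counting error only.

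In mRNA, 0 of the 36 genes passed an adjusted p of 0.05 by edgeR's quasi-likelihood test with Benjamini-Hochberg adjustment over 14032 genes, where the background was 0% of genes called. At an unadjusted p under 0.05 stood 3 of the 36 genes and 741 of all genes. DESeq2's Wald test called 12 of all genes and limma-voom called 0, none of them among the 36 genes. On the scale of the test, every sgDAMP library lay above every sgControl library in 4 genes (NOP58, NOLC1, UTP20 and LTV1). In 4 others every one lay below (UBTF, NOP56, UTP4 and NOB1). On that scale the same held for 5.91% of all genes above and 5.54% below, 11.5% in either direction. As shares of protein-coding counts, the groups of the 4 lower genes overlapped. Those of the 4 higher genes stayed apart. The median log2 change was -0.16 over the 36 genes and 0.03 over all genes. The standard errors of the 36 log2 changes ran from 0.247 to 0.556, so mRNA changes of the size of most footprint differences given below were not detectable at this spread. In bulk RNA, fewer cells that express a gene and less of its RNA per cell cannot be told apart.

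**Figure D1:**
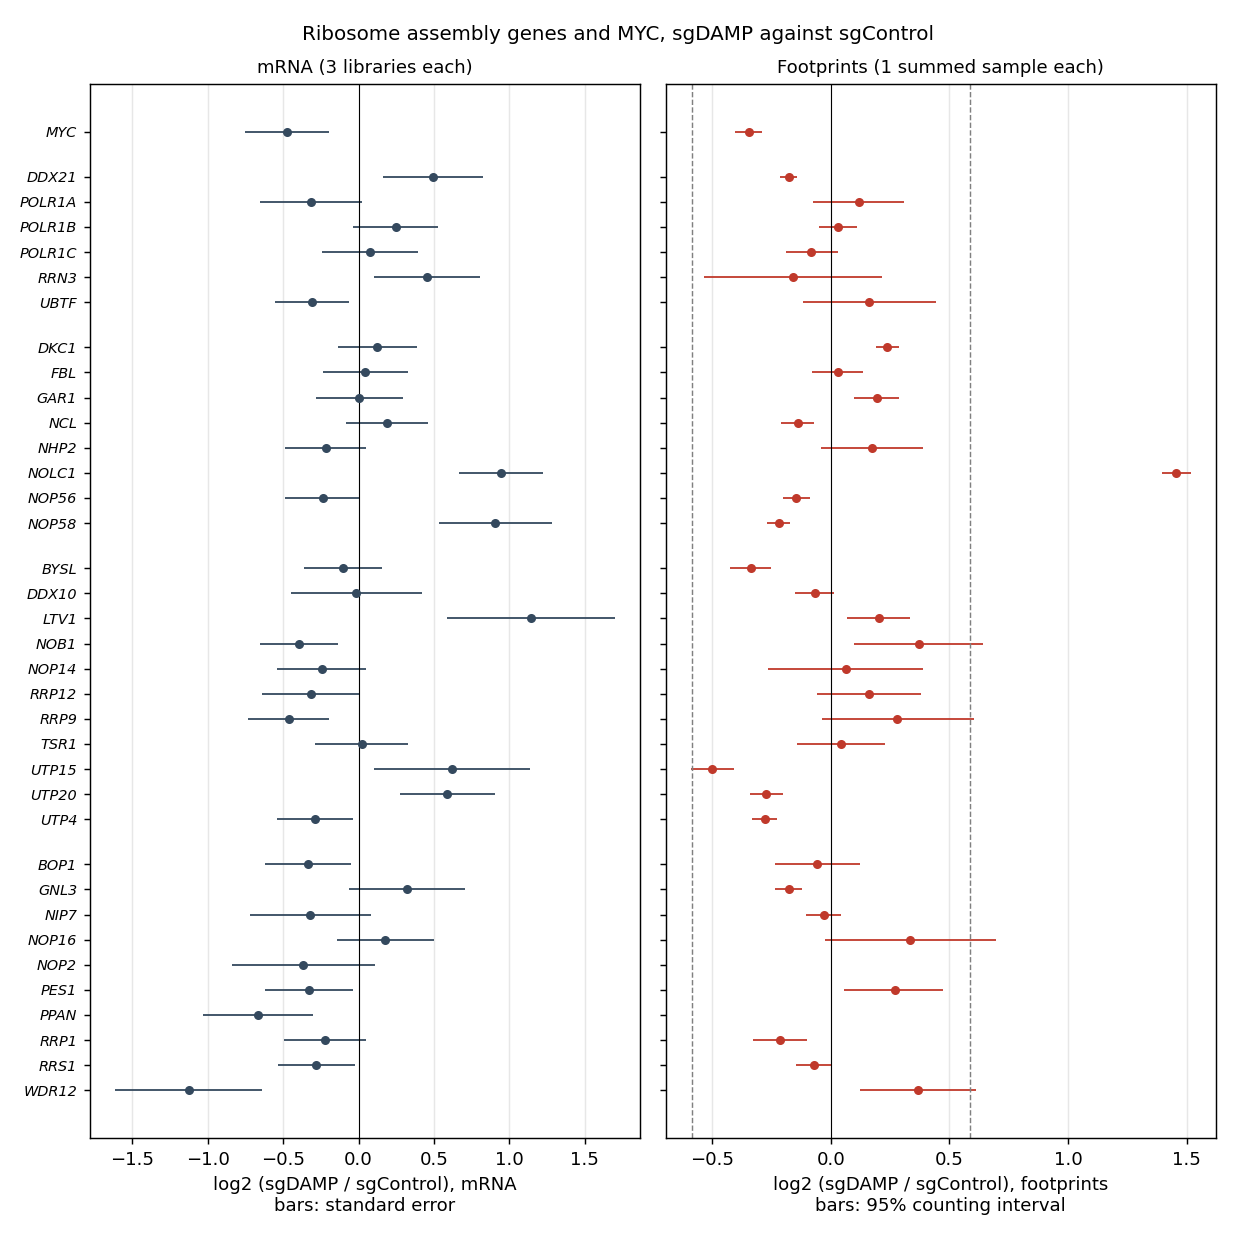
Log2 ratio of sgDAMP over sgControl for each gene, in mRNA on the left (point and standard error, 3 libraries per group) and in footprints on the right (point and 95% counting interval, 1 summed sample per group, dashed lines at 1.5-fold). NOLC1 stands at 1.46 in footprints, past the dashed line; the other 33 points lie between the lines, and NOP2 and PPAN have too few footprints for a point.

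The footprint ratios below and the scaled CPM behind them are relative to a zero point set by TMM (trimmed mean of M values), and directions that turn under another scaling are named. Footprint libraries of a group count as 1 sample, so footprint groups that do not overlap are a description and no replication. The share of all genes whose footprint groups do not overlap is not given. MYC had scaled CPM of 58.5, 36.3 and 49.8 in the sgDAMP mRNA libraries, against 75.5, 57.4 and 68.0 in sgControl. The groups overlap, because sgDAMP replicate 1 lies above sgControl replicate 2. The log2 change in mRNA was -0.47 (SE 0.276, edgeR adjusted p = 0.862). MYC footprints were 221, 233 and 222 scaled CPM in sgDAMP and 287, 290 and 284 in sgControl. All sgDAMP libraries lie below all sgControl libraries. The summed counts were 4836 in sgDAMP and 5959 in sgControl, a ratio of 0.787 (95% counting interval 0.757 to 0.817), which is inside 1.5-fold and stands at the 17th percentile of protein-coding genes. Relative to its mRNA, the footprints of MYC differed by 0.09 on the log2 scale (SE 0.588, adjusted p = 0.9999 in the edgeR interaction test).

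The RNA polymerase I group showed footprint ratios between 0.884 and 1.12. Its 6 members make the precursor RNA: POLR1A and POLR1B are the large catalytic subunits, POLR1C is a subunit shared with RNA polymerase III, RRN3 is the initiation factor that makes the polymerase competent, UBTF coats active ribosomal DNA, and DDX21 is an RNA helicase of the nucleolus.
POLR1A had the highest mRNA level of the group, with 148, 57.7 and 106 scaled CPM in sgDAMP and 164, 122 and 101 in sgControl. The groups overlap widely, and sgDAMP replicate 2 is the low value. Its footprints were 21.5, 22.4 and 20.7 scaled CPM in sgDAMP and 22.6, 17.7 and 19.6 in sgControl, a ratio of 1.09 (0.95 to 1.24).
UBTF was the gene of this group with the highest footprint ratio, 1.12 (0.922 to 1.36), from 10.2, 10.8 and 11.7 scaled CPM in sgDAMP and 10.6, 11 and 7.78 in sgControl. Those libraries overlap. Its mRNA libraries do not overlap in scaled CPM, at 89.3, 86.7 and 80.4 in sgDAMP and 114, 105 and 99.1 in sgControl. As shares of protein-coding counts, the mRNA libraries do overlap. The mRNA log2 change of -0.31 (SE 0.247, adjusted p = 0.862) missed the threshold of the edgeR test.
DDX21 was the most heavily covered of the 36 genes, with 12589 footprints in sgDAMP and 13811 in sgControl. The libraries held 574, 593 and 594 scaled CPM in sgDAMP and 667, 667 and 660 in sgControl, every sgDAMP value lower on this scale, at a ratio of 0.884 (0.862 to 0.905). The direction turned under total-count scaling (log2 ratio 0.04). Its mRNA held 47.8, 51.5 and 31.8 scaled CPM in sgDAMP and 19.5, 28.5 and 45.1 in sgControl, which overlap (log2 change 0.49, SE 0.334, adjusted p = 0.862, edgeR).
The other members had intervals that hold 1: POLR1B at a ratio of 1.02, POLR1C at 0.945 and RRN3 at 0.894.

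Among the snoRNP and scaffold genes, NOLC1 differed and the other 7 had ratios from 0.859 to 1.18. FBL is the methyltransferase of box C/D snoRNPs, and NOP56 and NOP58 are its core partners. DKC1 is the pseudouridine synthase of box H/ACA snoRNPs, with GAR1 and NHP2 as core partners. NCL, nucleolin, is an abundant RNA-binding protein of the nucleolus.
NOLC1 (chr10:102152389-102163870, GRCh38.p14) had 352, 368 and 387 scaled CPM of footprints in sgDAMP, against 137, 135 and 132 in sgControl. The lowest sgDAMP library lies far above the highest sgControl library. The summed counts were 7925 in sgDAMP and 2802 in sgControl, and the ratio of 2.74 (2.63 to 2.86) stands at the 99.5th percentile of protein-coding genes. NOLC1 alone took 0.0521% of protein-coding footprints in sgDAMP and 0.0158% in sgControl.
In mRNA, NOLC1 held 105, 82.4 and 79.6 scaled CPM in sgDAMP and 40.4, 59.2 and 39.0 in sgControl. These groups do not overlap either. The log2 change was 0.94 (SE 0.278, unadjusted p = 0.00444, adjusted p = 0.862, edgeR), the smallest unadjusted p of the 36 genes, and it failed the adjustment over all genes. Its footprints relative to mRNA differed by 0.47 (SE 0.584, adjusted p = 0.9999, edgeR interaction), less than 1 standard error.
FBL, the member of this group with the highest mRNA level, had 417, 663 and 630 scaled CPM in sgDAMP mRNA and 616, 513 and 529 in sgControl. Its footprints held 59.5, 64.4 and 74.8 scaled CPM in sgDAMP and 61.3, 62.8 and 70.8 in sgControl. Both pairs of groups overlap, and the footprint ratio was 1.02 (0.946 to 1.1).
NOP58 had opposite signs in the assays under TMM scaling, and a footprint log2 ratio of 0.00 under total-count scaling. Its mRNA was low and held 6.13, 7.01 and 4.94 scaled CPM in sgDAMP and 2.1, 3.19 and 4.33 in sgControl (log2 change 0.91, SE 0.374, unadjusted p = 0.0299, adjusted p = 0.862, edgeR). Its footprints held 301, 299 and 297 scaled CPM in sgDAMP and 335, 348 and 360 in sgControl. Neither pair of groups overlaps: sgDAMP is above in mRNA and below in footprints, at a footprint ratio of 0.859 (0.831 to 0.889). The test of the difference between the assays gave -1.16 (SE 0.616, unadjusted p = 0.0818, adjusted p = 0.9999, edgeR interaction) and did not pass.
DKC1 had a footprint ratio of 1.18 (1.14 to 1.22) and GAR1 of 1.14 (1.07 to 1.22), both above 1, while NHP2 at 1.13 had an interval that holds 1. NOP56 at 0.904 and NCL at 0.909 lay below 1. Under total-count scaling the log2 ratios of NOP56 and NCL turned to 0.07 and 0.08.

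**Figure D2:**
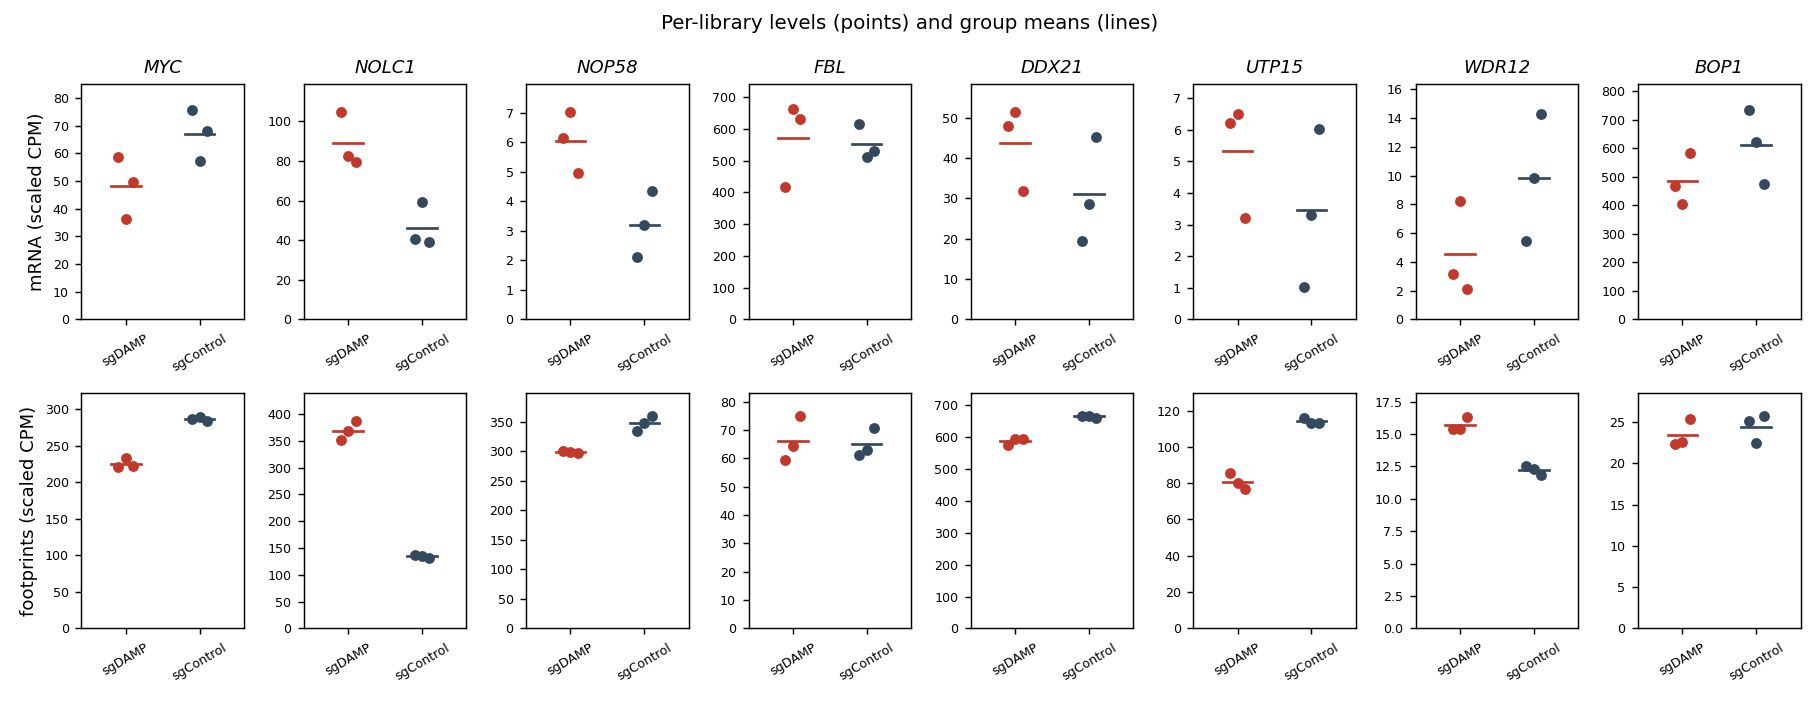
Scaled CPM of 8 genes in each library (points) with the group mean (line), sgDAMP left of sgControl, mRNA in the upper row and footprints in the lower row. NOLC1 is apart in both rows, with 352 to 387 scaled CPM of footprints in sgDAMP and 132 to 137 in sgControl, and the footprint points of a group lie closer together than its mRNA points.

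Small subunit assembly genes had footprint ratios from 0.707 to 1.29. UTP4, UTP15 and UTP20 belong to the processome that first packs the small subunit RNA, NOP14, RRP9 and RRP12 act in the same pathway, BYSL and TSR1 act on later precursors, NOB1 is the nuclease of the last cut, LTV1 is an export-stage factor, and DDX10 is a helicase.
UTP15 had the lowest ratio of the 34 genes, 0.707 (0.664 to 0.753), with 85.7, 80.1 and 76.8 scaled CPM of footprints in sgDAMP and 116, 113 and 113 in sgControl. The libraries do not overlap. Its mRNA was low and uneven, with 6.23, 6.51 and 3.22 scaled CPM in sgDAMP and 1.02, 3.31 and 6.02 in sgControl (log2 change 0.62, SE 0.519, adjusted p = 0.862, edgeR).
NOB1 had the highest ratio of this group, 1.29 (1.07 to 1.56), with 12.4, 12.8 and 12.8 scaled CPM of footprints in sgDAMP and 9.00, 10.3 and 10 in sgControl. In mRNA it held 66.8, 57.9 and 62.9 scaled CPM in sgDAMP and 98.5, 75.0 and 73.3 in sgControl, a log2 change of -0.40 (SE 0.258, adjusted p = 0.862, edgeR). In scaled CPM neither pair of groups overlaps, and sgDAMP is the higher in footprints and the lower in mRNA. As shares of protein-coding counts, the mRNA groups overlap. The interaction was 0.73 (SE 0.569, adjusted p = 0.9999, edgeR) and did not pass.
RRP12 had the highest mRNA level here, with 179, 85.8 and 141 scaled CPM in sgDAMP and 211, 175 and 118 in sgControl. Its footprints held 18.1, 16.8 and 16.9 scaled CPM in sgDAMP and 14.1, 13.9 and 18.1 in sgControl, and both pairs overlap (ratio 1.12, 0.96 to 1.3).
UTP4 (0.824), UTP20 (0.829) and BYSL (0.791) had intervals below 1, LTV1 (1.15) had an interval above 1, and NOP14 (1.05), RRP9 (1.21), TSR1 (1.03) and DDX10 (0.956) had intervals that hold 1. LTV1 had the largest positive log2 change in mRNA of the 36 genes, 1.14 (SE 0.556, adjusted p = 0.862, edgeR), on only 103 mRNA counts in sgDAMP and 43 in sgControl.

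Large subunit assembly genes had footprint ratios from 0.862 to 1.29 in the 8 genes that could be compared. PES1, BOP1 and WDR12 form the PeBoW complex that large subunit RNA processing needs. NOP2 is an RNA methyltransferase, RRS1 takes part in placing the 5S particle, GNL3 (nucleostemin) is a nucleolar GTP-binding protein, and NOP16, RRP1, NIP7 and PPAN are assembly factors.
BOP1 had the highest mRNA level of the group, with 467, 406 and 584 scaled CPM in sgDAMP and 735, 623 and 476 in sgControl. Its footprints held 22.4, 22.6 and 25.4 scaled CPM in sgDAMP and 25.1, 22.5 and 25.8 in sgControl. Both pairs overlap, and the footprint ratio was 0.962 (0.849 to 1.09).
WDR12 held 15.4, 15.4 and 16.3 scaled CPM of footprints in sgDAMP and 12.5, 12.3 and 11.8 in sgControl, a ratio of 1.29 (1.09 to 1.53). In mRNA it held 3.17, 8.22 and 2.14 scaled CPM in sgDAMP and 5.47, 9.81 and 14.3 in sgControl. Footprint libraries do not overlap and mRNA libraries do. Its mRNA log2 change of -1.13 (SE 0.489, unadjusted p = 0.0372, adjusted p = 0.862, edgeR) was the lowest of the 36 genes, and its interaction of 1.47 (SE 0.926, adjusted p = 0.9999, edgeR) the highest.
RRP1 had the lowest ratio of the group, 0.862 (0.796 to 0.933), with 51.9, 55.7 and 55.7 scaled CPM of footprints in sgDAMP and 66.7, 62.9 and 60.7 in sgControl. Its mRNA held 74.7, 70.3 and 77.6 scaled CPM in sgDAMP and 110, 85.4 and 63.8 in sgControl, which overlap.
PES1 (1.21) had an interval above 1 and GNL3 (0.885) below 1, and NOP16 (1.26), RRS1 (0.953) and NIP7 (0.98) had intervals that hold 1. NOP2 had 12 footprints in sgDAMP and 6 in sgControl, and PPAN had 3 and 10, too few to compare. PPAN lies under a read-through gene, PPAN-P2RY11, so its reads may be split between records. Of the genes given by library, POLR1A, UBTF, RRP12, NOB1 and BOP1 also overlap another RefSeq gene, and without a stated strand setting their counts are uncertain to that extent. The spans of 8 genes, among them NOP56, NOP58, NCL and GNL3, hold snoRNA genes.

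Counted over the 34 genes, 7 intervals lay above 1 (DKC1, GAR1, LTV1, NOB1, NOLC1, PES1 and WDR12), 11 below 1 (MYC, DDX21, NOP56, NOP58, NCL, UTP4, UTP15, UTP20, BYSL, RRP1 and GNL3) and 16 held 1. Over all genes compared, 28% of intervals lay above 1 and 28.2% below. That background is not matched for depth: it takes genes from 30 summed footprints, while the least covered of the 34 had 248. Intervals narrow as counts grow. The zero point rests on the scaling: total gene counts in place of TMM moved the median of all genes by about 0.22 on the log2 scale. Then 29 of the 34 log2 ratios were above 0 and 5 below (MYC, UTP4, UTP15, UTP20 and BYSL). Thus 6 of the 11 genes named as below 1 changed sign (DDX21, NOP56, NOP58, NCL, RRP1 and GNL3). BOP1 (0.16), POLR1C, RRN3, DDX10, RRS1 and NIP7, whose intervals hold 1, changed sign too. Then also 3 genes were past 1.5-fold (NOLC1, NOB1 and WDR12), and the counts over all genes became 3224 higher and 937 lower, in place of 2021 and 1613. NOLC1 was higher and MYC and UTP15 were lower under each scaling tried. Together the 36 genes took 0.558% to 0.569% of protein-coding footprints in sgDAMP libraries and 0.473% to 0.482% in sgControl libraries. Without NOLC1 the shares were 0.512% in sgDAMP and 0.464% in sgControl. Shares carry no TMM scaling, and without it the typical gene was higher in sgDAMP too. Under total-count scaling the median log2 ratio was 0.22 over the 34 genes and 0.23 over all genes. The higher share is therefore no trait of the 36 genes. In mRNA the share overlapped, with 0.32% to 0.359% in sgDAMP and 0.319% to 0.36% in sgControl.

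Genes with and without the E-box overlapped in their values in both assays. The 12 genes with the motif had a median mRNA log2 change of -0.05, from -0.46 to 1.14, and the 18 without it had -0.12, from -1.13 to 0.62. In footprints, 11 genes with the motif had a median log2 ratio of 0.03 and 17 without it had 0.03. NOLC1 and MYC, which had no promoter window, are in neither group, as are NOP58, BOP1, RRP12 and RRS1. UTP4 and UTP20, whose sites are printed above, had footprint ratios under 1, and RRP9 had a ratio of 1.21 with an interval that holds 1.

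In the test of footprints relative to mRNA, 0 of 34 genes were called, where 0.448% of 11603 genes passed an adjusted p of 0.05 (5 higher and 47 lower in sgDAMP). At an unadjusted p under 0.05 stood 0 of the 34 genes and 497 of all. This edgeR fit assumes that the lone summed footprint samples vary as the mRNA libraries do. With the footprint libraries taken as replicates, 1 of the 34 genes passed, NOP58 (-1.15, adjusted p = 0.0467), where 3.82% of all genes did, and with a replicate block added 0 of the 34 passed, where 2.18% of all genes did. The standard errors ran from 0.523 to 0.932, so only changes of several fold between the assays were detectable.

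The amount of footprint per mRNA spread over a wide range among these genes within a condition. The measure is log2 of footprint CPM over mRNA CPM, minus its median over protein-coding genes of the same condition, and is given as a description. A gene needed at least 10 summed counts in each assay. In sgDAMP it had a median of 0.82 over 35 genes and ran from -4.0 (BOP1) to 5.98 (NOP58). In sgControl the median was 0.72 over 35 genes, from -4.28 (BOP1) to 7.09 (NOP58). Genes with low mRNA and many footprints stood at the top: after NOP58 came LTV1 (5.11 in sgDAMP, 6.02 in sgControl), UTP15 (4.26 and 5.35) and DDX21 (4.09 and 4.74). Genes with much mRNA and few footprints stood at the bottom: after BOP1 came PES1 (-3.07 in sgDAMP, -3.65 in sgControl) and RRP9 (-3.06 and -3.80). MYC stood at 2.58 in sgDAMP and 2.45 in sgControl, and NOLC1 at 2.40 and 1.90. Partners in one complex stood far apart, as in the PeBoW complex, where WDR12 was at 2.15 in sgDAMP and 0.63 in sgControl, beside BOP1 and PES1 at the bottom.

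In Scramble cells the order was another. The same measure had a median of -0.64 over 30 genes and ran from -2.18 (DDX21) to 0.55 (FBL), with 3 of 30 above the median of protein-coding genes. The other 6 genes had under 10 footprints there and were left out. Among them were NOP58 (9 footprints on 1641 mRNA counts) and LTV1 (5 on 309), which led in sgDAMP and sgControl. DDX21 was thus near the top in sgDAMP and sgControl and lowest of the 30 in Scramble. FBL was at -2.73 in both of the other conditions and highest of the 30 in Scramble. Across 34 genes the values of sgDAMP and sgControl had Pearson's r of 0.989, and across 30 genes those of Scramble and sgControl had r of -0.204. Over all protein-coding genes these were 0.968 and 0.111. Each r is across genes, which are not independent replicates. The conditions differ in more than the cells: 95.7% to 95.8% of reads were assigned to no gene in Scramble footprints, 69.7% to 70.0% in sgDAMP and 65.8% to 66.4% in sgControl, and the SD of the measure over protein-coding genes was 1.45 in Scramble, 2.58 in sgDAMP and 2.83 in sgControl. The part of library preparation and of the cells in this difference cannot be told apart.

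**Figure D3:**
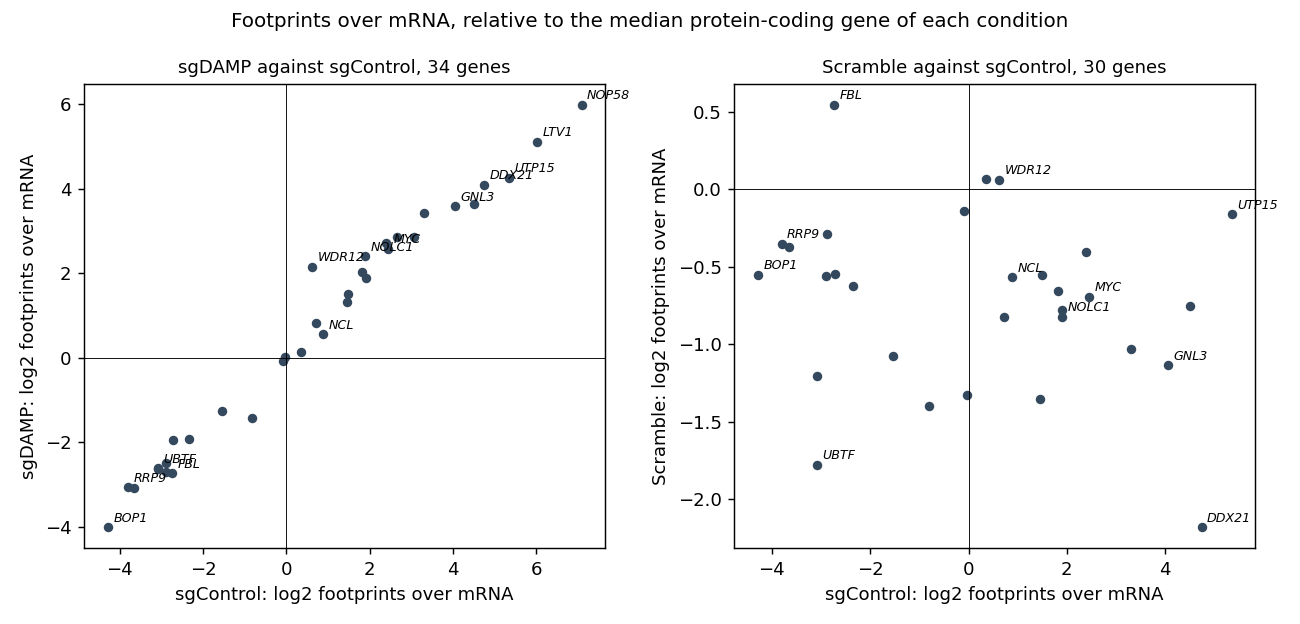
Log2 footprints over mRNA of each gene, relative to the median protein-coding gene of its condition, for sgDAMP on the y axis against sgControl on the x axis (left, 34 genes) and for Scramble on the y axis against sgControl on the x axis (right, 30 genes). The points on the left follow a line from BOP1 at -4.0 to NOP58 at 5.98 in sgDAMP, and those on the right do not, with DDX21 lowest in Scramble at -2.18 and FBL highest at 0.55.

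The mRNA levels of the same genes also differed between Scramble cells and the CRISPR conditions. In coding CPM (counts per 1e6 protein-coding counts), 8 of the 36 genes were higher in all 6 sgDAMP and sgControl libraries than in all 3 Scramble libraries, 21 were lower and 7 overlapped. Over 12456 protein-coding genes, 17.7% were higher and 52.7% lower in this way. MYC averaged 53.6 ± 15.4 coding CPM in sgDAMP, 66.7 ± 9.04 in sgControl and 134 ± 5.62 in Scramble (SD, n = 3 each). NCL averaged 150 ± 42.0 in sgDAMP, 118 ± 15.1 in sgControl and 562 ± 21.0 in Scramble. BOP1 and FBL went the other way: BOP1 averaged 533 ± 78.0 in sgDAMP, 604 ± 89.3 in sgControl and 131 ± 19.1 in Scramble, and FBL averaged 623 ± 115 in sgDAMP, 549 ± 39.6 in sgControl and 219 ± 13.1 in Scramble. The log2 ratio of sgControl over Scramble ran from -3.98 (NOP58) to 2.21 (BOP1), with an SD of 1.62 over the 36 genes and 2.05 over 12456 protein-coding genes. These levels are set side by side with no test, because 54.0% to 54.3% of Scramble mRNA reads and 22.2% to 24.2% of the others were assigned to no gene.

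**Figure D4:**
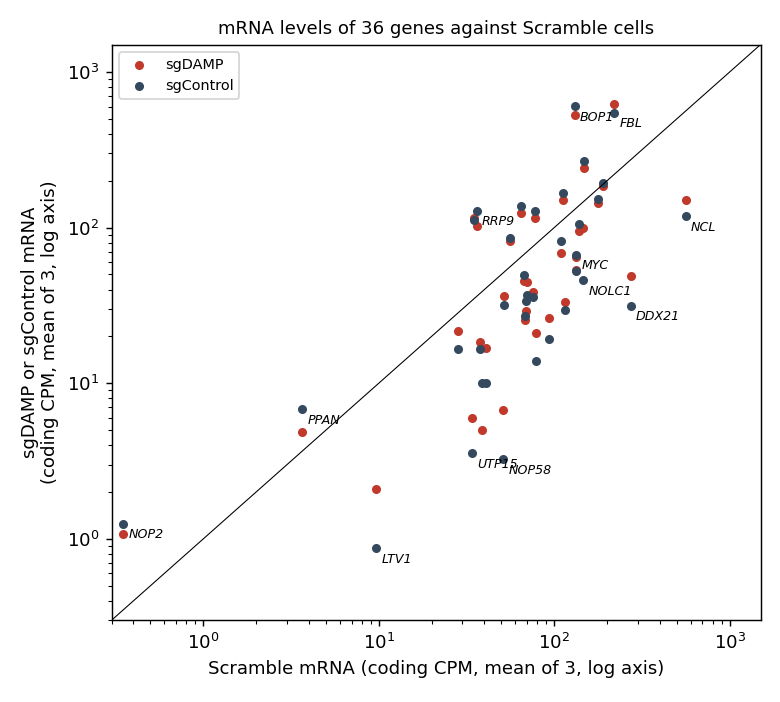
Mean mRNA level of the 36 genes in Scramble cells (x axis) and in sgDAMP and sgControl cells (y axis), in coding CPM on log axes, with the line of equal levels. BOP1 and FBL lie above the line, at 533 and 623 coding CPM in sgDAMP, and NOP58, LTV1, UTP15, DDX21, NCL and MYC lie below it.

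Footprints were also tested against mRNA within Scramble cells, where the 3 libraries of each assay differ beyond sampling noise. The footprints of the 36 genes were few, from 0 (PPAN) to 188 (NCL) summed over the libraries with a median of 21.5. By edgeR's quasi-likelihood test, 10 of 36 genes were lower in footprints than in mRNA and 2 were higher at an adjusted p of 0.05. Over 14432 genes, 27.4% were lower and 17.1% higher. The median log2 difference was -0.52 over the 36 genes, -0.68 over all genes and -0.45 over protein-coding genes. The zero point again rests on the scaling: total-count scaling moved the median gene by -2.84 and called 481 genes higher and 13050 lower, in place of 2464 and 3954.
DDX21 had the lowest value among the genes called, -2.0 (SE 0.272, adjusted p = 9.9e-07), with 17.1, 25.6 and 28.5 scaled CPM in footprints and 94.0, 93.2 and 83.0 in mRNA. UBTF followed at -1.62 (SE 0.316, adjusted p = 0.000149), with 17.1, 13.8 and 12.2 scaled CPM in footprints and 44.4, 41.9 and 51.4 in mRNA. In both, every footprint library lies below every mRNA library. RRN3 (-1.22) and TSR1 (-1.16) were also called, and these 4 genes were called under every scaling, filter and left-out library that tested them. NOP58 (-1.33), POLR1C (-1.19), RRP12 (-1.04), GNL3 (-0.98), NOP56 (-0.66) and NOLC1 (-0.66) were called in the edgeR fit but not under each alternative. Of the 6 genes of RNA polymerase I transcription, 4 were among the 10.
FBL was higher in footprints by 0.66 (SE 0.221, adjusted p = 0.0169), with 130, 136 and 52.8 scaled CPM in footprints and 67.6, 70.0 and 79.1 in mRNA. The groups overlap, and replicate 3, the shallowest footprint library, is the low one. The call was lost when footprint replicate 1 or 2 was left out, with no count filter and with a replicate block, and the sign turned (-0.33) among genes with at least 10 counts in every library. NOP2, the other gene counted as higher (5.81, SE 0.877), had 9 footprints and 11 mRNA counts over the libraries. It passed the filter on low counts through the shallow footprint libraries, where it is high (3.41, 7.88 and 12.2 scaled CPM, against 0.0306, 0.114 and 0.205 in mRNA), and was not called when any mRNA library was left out, so its call supports nothing.
MYC had 34.1, 29.6 and 24.4 scaled CPM in footprints and 45.7, 42.0 and 44.9 in mRNA. The groups do not overlap, and the log2 difference of -0.53 (SE 0.25, adjusted p = 0.084, edgeR) missed the threshold. DESeq2's Wald test called it at -0.57 (adjusted p = 0.0387).

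The mRNA libraries of one group did not agree on these genes. In 13 of the 36 genes, among them DDX21, NCL, NOP58, GNL3 and UTP15, the highest sgDAMP library was replicate 2 and the highest sgControl library was replicate 3. In sgControl, replicate 1 held the highest value for 18 genes, replicate 3 for 17 and replicate 2 for 1. In sgDAMP, replicate 2 held it for 17, replicate 1 for 14 and replicate 3 for 5. The median SD of the 36 genes within a group was 0.331 on the log2 scale in mRNA and 0.0607 in footprints. The shares of all genes with these patterns were not counted, so the counts do not describe a trait of the 36 genes. What sets the libraries apart was not tested.

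The other genes of the pathway are given as 3 lists, each beside the shares over all genes. Over protein-coding genes 14.1% were past 1.5-fold higher in footprints and 8.88% lower. Among those with at least 248 footprints, a depth the lists were not held to, the shares were 7.27% and 6.38%. Other ribosome assembly genes, 98 of 99 compared in footprints, had 8 past 1.5-fold higher in sgDAMP and 2 past it lower, with a median log2 ratio of -0.07, where 14.1% of all genes compared were past that mark higher and 11.3% lower. The largest were TAF1C, a subunit of the RNA polymerase I selectivity factor (75 footprints in sgDAMP and 33 in sgControl, ratio 2.2, 1.44 to 3.43), TTF1, the termination factor of ribosomal DNA (70 and 33, ratio 2.06, 1.34 to 3.21), SBDS, which helps release eIF6 from the large subunit (242 and 116, ratio 2.02, 1.61 to 2.55), and in the other direction POLR1G, a subunit of RNA polymerase I (91 and 171, ratio 0.516, 0.396 to 0.669). TCOF1, treacle, whose sequence and partners resemble those of NOLC1, had 2740 footprints in sgDAMP and 1541 in sgControl, a ratio of 1.72 (1.62 to 1.84), and was named after its value was seen. In mRNA 0 of 98 were called, and in the interaction 0 of 98.

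The MYC network list holds MYC's partner MAX and the proteins that share or compete for it. Of 18 genes, 15 could be compared in footprints, 1 past 1.5-fold higher and 1 past it lower, beside the same 14.1% and 11.3% over all genes, with a median of 0.04.
MNT, a repressor that binds MAX in place of MYC, had 14, 18 and 17 footprints in the sgDAMP libraries and 277, 287 and 303 in sgControl. The ratio was 0.0548 (0.0402 to 0.0731). MNT mRNA averaged 20.3 ± 9.61 coding CPM in sgDAMP and 17.5 ± 4.97 in sgControl (SD, n = 3 each), and its mRNA log2 change was 0.03 (SE 0.358, adjusted p = 0.988, edgeR). MNT passed the test of footprints relative to mRNA, at -4.26 (SE 0.824, adjusted p = 0.0442, edgeR interaction).
MXD4, another MAX partner of the repressor family, had 63 footprints in sgDAMP and 26 in sgControl (ratio 2.35, 1.47 to 3.87). MAX itself had 53 in sgDAMP and 49 in sgControl (ratio 1.05, 0.697 to 1.58).

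MYC targets outside ribosome assembly had 1 of 34 past 1.5-fold higher and 6 past it lower in footprints, with a median of -0.07. Over all genes 14.1% were higher and 11.3% lower, and over protein-coding genes 14.1% and 8.88%. CDK4, the G1 cyclin-dependent kinase, held 444 footprints in sgDAMP and 49474 in sgControl, a ratio of 0.0087 (0.00791 to 0.00955). Its sgControl libraries differed beyond sampling noise, at 3250, 2760 and 2400 coding CPM, so that interval is too narrow. As mRNA, CDK4 averaged 300 ± 67.0 coding CPM in sgDAMP and 281 ± 31.5 in sgControl (SD, n = 3 each). It passed the test of footprints relative to mRNA at -6.84 (SE 0.673, adjusted p = 0.00049, edgeR interaction). In Scramble cells CDK4 averaged 246 ± 54.9 coding CPM in footprints and 268 ± 10.5 in mRNA (SD, n = 3 each). MCM4, a subunit of the replicative helicase, had a ratio of 0.477, NME2, a nucleoside diphosphate kinase, of 0.381, and EIF4A1, a translation initiation helicase, had 8 footprints in sgDAMP and 24 in sgControl.
No list was tested as a set. In mRNA 0 genes of the MYC network (18 tested) and of the MYC targets (35 tested) were called.

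**Figure D5:**
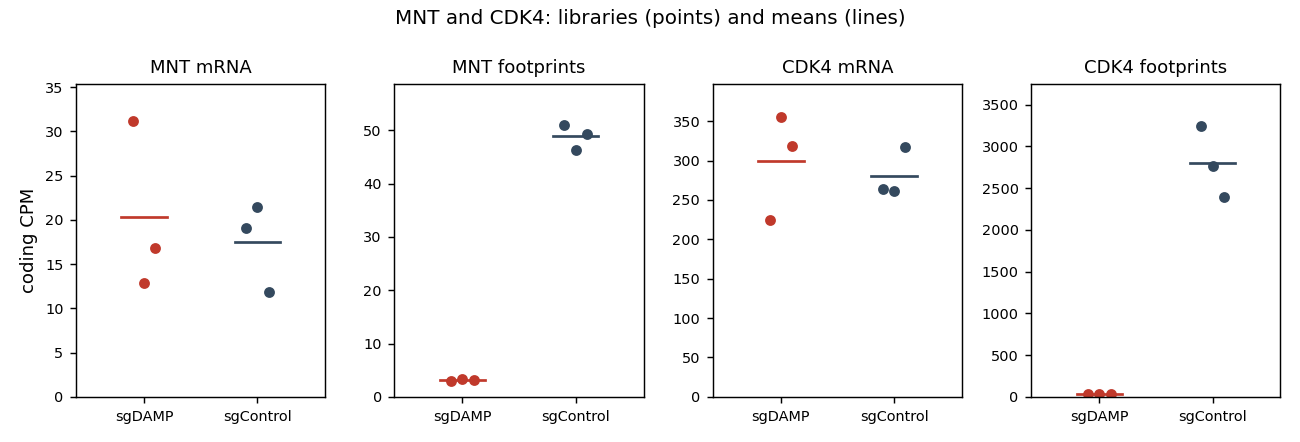
MNT and CDK4 in mRNA and in footprints, in coding CPM, with each library as a point and the mean as a line, sgDAMP left of sgControl. The mRNA points of the groups overlap, while MNT footprints stand at 2.96 to 3.43 in sgDAMP and 46.3 to 51.0 in sgControl, and CDK4 footprints near 29 in sgDAMP, far below sgControl.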

How the data were processed

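The deposited values are raw counts per gene in the form HTSeq writes, for 18 libraries of NCI-H1975 cells. Per the submitters' processing notes, the authors named Trimmomatic 0.30, HISAT2 2.1.0 with SAMtools 1.10, then HTSeq 0.11.2, as well as edgeR, with GRCh38 as the build. The sources used here state no annotation release and no strand setting, so 17 of the 36 genes, whose spans overlap another gene, are uncertain to that extent.

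The members and lists were chosen with earlier results of these data known. mRNA counts were filtered with filterByExpr (minimum count 10), scaled by TMM and tested with edgeR 4.0.16 (quasi-likelihood) in R 4.3.3, over all genes, at a Benjamini-Hochberg adjusted p of 0.05, two-sided. Footprints of sgDAMP and of sgControl were summed per group, because their libraries agree within sampling noise over the 99% of genes that agreed best. CDK4 in sgControl, at a chi-square of 396 per degree of freedom, was among the genes that did not agree. Summed footprints were compared at 30 or more counts with exact Clopper-Pearson 95% intervals. These hold for counting error alone, as PCR copies of a molecule could not be told from new molecules. The interaction fit used 6 mRNA libraries and the 2 summed footprint samples. Scaled CPM are counts per 1e6 of TMM-scaled library sizes, set within each comparison. Reads assigned to no gene stayed out of all totals. Same-numbered libraries of the groups compared correlated at 0.462, -0.332 and -0.541 in mRNA of sgDAMP with sgControl and from -0.002 to 0.005 in footprints, and were not taken as paired; the 3 pairs of sgDAMP with Scramble mRNA, which no test compares, correlated at 0.226 to 0.323. DESeq2 1.42.0 and limma 3.58.1 were alternatives. The fits were tested on simulated data. Per-library values were given for MYC and, in each role group, for the gene with the highest mRNA level and those with the highest and lowest footprint ratio; of other lists, for up to 4 genes with the largest ratios past the fold. Promoter sequences came from RefSeq, GRCh38.p14.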

Additional observations from a re-analysis of the deposited data

How the results depend on the processing

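No gene of the 36 was called in mRNA under any scaling, filter, test or left-out library. NOLC1 was past 1.5-fold in footprints in every setting and past 2-fold too. Under total-count scaling 3 genes passed. With footprint libraries as replicates 18 of 34 genes passed the edgeR test, and 18 with a replicate block, where no fold is required and 55.6% and 55.7% of all genes passed; the p-values then rest on spread no larger than sampling noise. In the interaction, 1 gene (NOP58) passed with footprint libraries as replicates and 0 with the replicate block. In Scramble cells the count of 12 became 36 under total-count scaling, 1 of only 2 genes left with at least 10 counts in every library, 6 with the replicate block, and 6 to 13 on leaving out each library. The replicate block left 0 genes called in mRNA; since the numbers did not pair the samples, a call lost under it is no weaker effect.

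Signs turned for values near 0. FBL mRNA became -0.00419 under DESeq2. The interaction became 0.0161 (size factors) and 0.0774 (total count) for FBL, and 0.0401, 0.0744 and 0.00523 (size factors, total count, no filter) for RRP1. In Scramble, FBL became -2.10 (total count) and -0.325 (10 counts in every library), UTP15 0.11 (upper quartile) and 0.0358 (protein-coding TMM), WDR12 -2.63 (total count), and RRP1 -0.00454, -2.84, -0.150 and -0.0345 (size factors, total count, no filter, DESeq2). On leaving out each library, FBL ran from -0.0765 to 0.206 in mRNA, FBL from -0.196 to 0.0728, MYC from -0.104 to 0.290 and RRP1 from -0.252 to 0.190 in the interaction, and UTP15 from -0.583 to 0.173, WDR12 from -0.184 to 0.416 and RRP1 from -0.346 to 0.320 in Scramble; the cause was not tested.

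Total-count scaling moved the median gene by 0.134 in mRNA, 0.22 in footprints and 0.12 in the interaction, and upper-quartile scaling by 0.111 in Scramble. Counts over all genes moved too. In mRNA 0 became 14 with no filter, 12 by DESeq2 and 6 without sgControl replicate 3. In footprints 3634 became 5524 with no filter, 6957 with libraries as replicates and 1800 at 2-fold. In the interaction 52 became 443 with libraries as replicates, 253 with the replicate block, and 27 to 63 on leaving out each library. In Scramble 6418 became 13531 under total-count scaling, whose median gene shifted by -2.84, and 1143 with at least 10 counts in every library. Depth limits Scramble footprints most, where 6 of the 36 genes had under 10 counts; 0 for PPAN allows up to 0.000573% of protein-coding footprints.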
